A study of Mus musculus with 58 samples.

Results

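The start of mouse chromosome 7 carries 9 genes that were followed here in 2 brain regions, the primary visual cortex (PVC) and the entorhinal cortex (EC), namely *Myadm*, *Oscar*, *Prpf31*, *Cnot3*, *Tmc4*, *Mboat7*, *Leng8*, *Rdh13* and *Ptprh*. They are 9 of the 31246 genes listed for each region and were found by their symbols. The 9 genes were chosen by their position and because several of them stood out in the authors' comparison of *APOE3/4* with *APOE3/3* mice, while *Cnot3*, *Prpf31* and *Leng8* were taken along as neighbours. The fold changes and *p*-values of that comparison were not used here, so no value below speaks to an effect of genotype, and a possible link between these genes and the altered *Apoe* locus was not tested.

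RNA-sequencing was performed on the EC and PVC of male C57Bl/6 *APOE* targeted replacement mice, in which human *APOE* stands in place of the mouse gene under the mouse promoter, at 14 to 15 months of age. In each region 10 *APOE3/3* and 19 *APOE3/4* mice were sequenced, and the same 29 animal numbers recur in both regions, which gives 58 libraries. Controls and carriers alike therefore bear the human gene in place of the mouse one, and the animals of the study came from 2 colonies. The value used throughout is the authors' mean normalized count of a gene, that is its read count divided by a size factor for each library and averaged over all 29 libraries of a region, with the genotypes pooled. No value of a single mouse was used, so the means carry no error and no difference between them was tested. The sum of all means was 49385488 for the EC table and 27058393 for the PVC table.

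The 9 genes belong to unrelated pathways. *Oscar* encodes the osteoclast-associated receptor, an immunoglobulin-like receptor of myeloid cells that signals through the adaptor encoded by *Fcer1g*. *Mboat7* encodes an acyltransferase that places arachidonic acid on lysophosphatidylinositol, and *Rdh13* a mitochondrial retinol dehydrogenase. The membrane proteins are MYADM, a raft protein first described in myeloid cells, TMC4, of the transmembrane channel-like family, and PTPRH, a receptor tyrosine phosphatase best known from epithelia. *Cnot3* encodes a subunit of the CCR4-NOT complex, which shortens the poly(A) tails of mRNA, and *Prpf31* a splicing factor of the U4/U6.U5 small nuclear ribonucleoprotein. *Leng8* is named only after its place near the leukocyte receptor cluster.

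On the NCBIM37 build, which matches the mm9 genome used by the authors, the 9 genes lie on chromosome 7 within 1.27 Mb, from *Myadm* (3289039 to 3299346) to *Ptprh* (4500214 to 4555643). The end of *Ptprh* is 15.7 Mb away from *Apoe*. *Oscar* (3561415 to 3567759), *Prpf31* (3581587 to 3594088), *Cnot3* (3596892 to 3612710), *Tmc4* (3617392 to 3629126) and *Mboat7* (3629392 to 3645125) follow each other within 83.7 kb. *Leng8* (4088641 to 4099775) and *Rdh13* (4376372 to 4397251) stand apart from them. *Myadm*, *Prpf31*, *Cnot3* and *Leng8* are on the plus strand and the other 5 genes on the minus strand.

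RefSeq promoter sequences of 300 bases around a transcript start were found for 8 of the 9 genes, not for *Rdh13*. All 12 sequences of these 8 genes, of which *Myadm* has 4 and *Leng8* 2, matched chromosome 7 of NCBIM37 exactly and at 1 place each. A selection of 4 sequences is printed to show how far the genes differ in their content of CG, the dinucleotide that is dense in the promoters of many broadly expressed genes and that is set in capitals. The promoter of *Oscar* (chr7:3567710-3568009, minus strand), that of *Ptprh* (chr7:4555594-4555893, minus strand), that of *Prpf31* (chr7:3581337-3581636, plus strand) and the first of *Leng8* (chr7:4088408-4088707, plus strand) read as follows.
Oscar: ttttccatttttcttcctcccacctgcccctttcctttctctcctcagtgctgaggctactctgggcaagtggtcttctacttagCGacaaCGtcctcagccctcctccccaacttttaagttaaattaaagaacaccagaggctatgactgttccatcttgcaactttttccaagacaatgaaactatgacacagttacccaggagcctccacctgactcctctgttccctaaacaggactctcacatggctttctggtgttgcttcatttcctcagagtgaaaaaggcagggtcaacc
Ptprh: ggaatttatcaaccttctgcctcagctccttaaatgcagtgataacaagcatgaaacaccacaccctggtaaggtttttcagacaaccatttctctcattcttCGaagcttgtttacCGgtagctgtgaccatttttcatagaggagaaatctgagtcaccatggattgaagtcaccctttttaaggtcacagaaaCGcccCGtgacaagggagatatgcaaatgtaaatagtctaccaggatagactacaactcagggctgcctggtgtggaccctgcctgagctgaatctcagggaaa
Prpf31: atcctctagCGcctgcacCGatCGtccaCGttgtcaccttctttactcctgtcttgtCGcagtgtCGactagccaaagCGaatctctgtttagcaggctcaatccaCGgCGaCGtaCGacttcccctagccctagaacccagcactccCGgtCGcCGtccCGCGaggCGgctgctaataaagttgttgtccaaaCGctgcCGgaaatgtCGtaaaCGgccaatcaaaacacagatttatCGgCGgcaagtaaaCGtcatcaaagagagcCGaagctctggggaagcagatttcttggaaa
Leng8: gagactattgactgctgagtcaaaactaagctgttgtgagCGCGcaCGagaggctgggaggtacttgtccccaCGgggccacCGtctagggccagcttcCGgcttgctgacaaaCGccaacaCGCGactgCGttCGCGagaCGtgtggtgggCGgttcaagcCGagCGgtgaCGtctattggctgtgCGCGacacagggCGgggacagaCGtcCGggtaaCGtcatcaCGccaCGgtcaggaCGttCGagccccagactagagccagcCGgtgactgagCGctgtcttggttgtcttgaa

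The *Oscar* promoter held 2 CG pairs and that of *Ptprh* 4, against 25 for *Prpf31* and 29 for the first *Leng8* sequence. The second *Leng8* sequence held 34, the *Cnot3* promoter 28, the *Mboat7* promoter 23 and the *Tmc4* promoter 6. The 4 *Myadm* sequences held 3, 13, 13 and 10, the pair with 13 being shifted against each other by a single base. Among all 32851 promoter sequences of the table the median was 7, and 43.5% held at least 10, as did 8 of the 12 sequences here. These 8 are not separate genes, as they include several sequences of *Myadm* and both of *Leng8*. The motif TATAAA, searched on both strands, occurred in the *Tmc4* promoter and in 0 of the other 11 sequences, against 13.6% of all promoter sequences. In the *Tmc4* promoter it lay only on the strand opposite to the gene, so that the gene's own strand reads TTTATA there.

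The highest mean of the 9 genes was 550-fold above the lowest in the EC, and 576-fold in the PVC. *Leng8* was the most abundant, with an EC mean normalized count of 23237 and a PVC mean of 12667. Among the genes with a mean above 0, this was percentile 98.9 of the EC and 98.8 of the PVC. *Mboat7* followed with 8571 (EC) and 4263 (PVC), percentiles 95.2 and 94.3. By mean normalized count both were among the most highly expressed genes of either region. Per kilobase of exons, among the genes compared between the regions, *Leng8* was at percentiles 96.3 (EC) and 96.2 (PVC). *Mboat7* was at 82.85 and 80.76 on that scale.

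The middle of the range was held by 4 genes. *Myadm* had an EC mean of 3606 and a PVC mean of 1767. For *Rdh13* the means were 2620 and 1213, for *Cnot3* 2515 and 1337, and for *Prpf31* 1837 and 935. All 4 lay between percentiles 76.1 and 87.1 of the genes with a mean above 0 in their region. Among the genes with a mean of at least 10 they ran from percentile 61.4 (*Prpf31*, PVC) to 80.1 (*Myadm*, EC). *Rdh13* was above *Cnot3* in the EC and below it in the PVC, and since the means carry no spread this change of place was not tested.

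The lowest levels were those of the receptor-like and channel-like genes. *Tmc4* had an EC mean of 243 and a PVC mean of 134. This was percentile 54.9 (EC) and 54.2 (PVC) of the genes with a mean above 0, but 30.6 and 26.1 of those with a mean of at least 10. *Oscar* was at 60.0 (EC) and 27.4 (PVC), and *Ptprh* at 42.2 and 21.99. Among the genes with an EC mean of at least 10 they were at percentiles 16.7 and 13.5. In the PVC the same percentiles were lower, 9.58 for *Oscar* and 7.46 for *Ptprh*. *Oscar* and *Ptprh* passed the minimum of 10 set for a comparison of the regions but not one of 100. The levels of *Oscar* and *Ptprh* are averages over mice of both genotypes, and how they divide between *APOE3/3* and *APOE3/4* mice was not analysed here.

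Levels of different genes were set side by side per kilobase of annotated exons, merged over all transcripts of a gene. On this scale *Leng8* had an EC value of 3636, 3.27-fold above that of *Mboat7*, and a PVC value of 1982. *Myadm* and *Mboat7* were next, the EC values being 1114 and 1111 and the PVC values 546 and 553. The distance between these genes rests on the length used. Per kilobase of the longest transcript, *Mboat7* was at 2537 in the EC against 1202 for *Myadm*, and at 1262 against 589 in the PVC, while *Leng8* at 4150 in the EC was 1.64-fold above *Mboat7*. On the merged length *Cnot3* (580 and 308), *Rdh13* (397 and 184) and *Prpf31* (338 and 172) followed. *Tmc4* had 62.9 and 34.8, *Oscar* 32.5 and 14.9, and *Ptprh* 10.5 and 5.47. The *Ptprh* value was at percentile 2.73 of the EC, counted per kilobase among the genes that entered the comparison of regions. Of the 9 places in this order 7 were held by the same gene in both regions, and *Myadm* and *Mboat7* exchanged theirs, which they did not with the longest transcript.

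**Figure D1:**
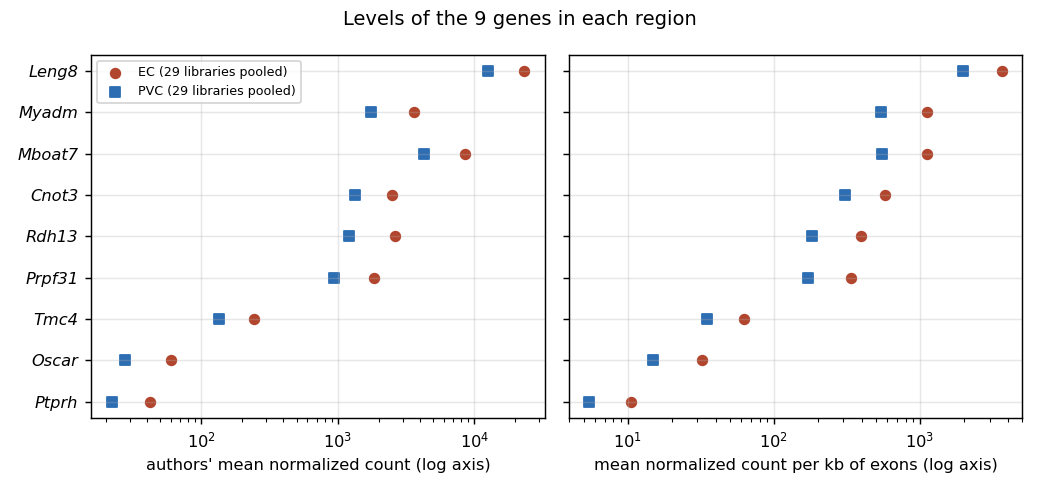
Mean normalized count (left) and mean normalized count per kilobase of exons (right) of the 9 genes, both on log axes, with circles for the EC and squares for the PVC, each a pooled mean of 29 libraries without an error. The order from *Leng8* at the top to *Ptprh* at the bottom runs from 3636 to 10.5 per kilobase in the EC, and the EC values are to the right of the PVC values for every gene because the tables have different scales.

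Promoter CG content and level can be read together for 8 genes. *Oscar*, *Ptprh* and *Tmc4*, the genes with the lowest levels per kilobase, had promoters with 2, 4 and 6 CG pairs. The promoters of *Mboat7*, *Prpf31*, *Cnot3* and *Leng8* held 23 or more. *Myadm* was high in level with 3 to 13 CG pairs. These are values of 8 genes picked together, and no relation was tested.

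**Figure D2:**
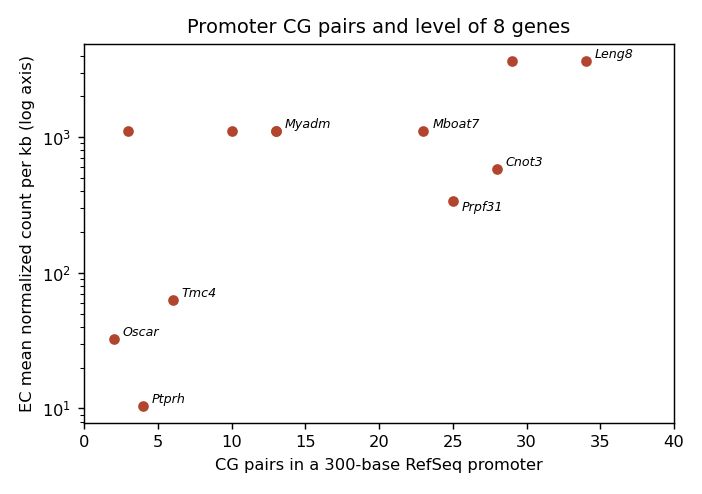
Number of CG pairs in each 300-base RefSeq promoter sequence (horizontal) against the EC mean normalized count per kilobase on a log axis (vertical) for the 8 genes with a sequence, *Myadm* and *Leng8* having several points at the same height. *Oscar*, *Ptprh* and *Tmc4* lie at the lower left with at most 6 CG pairs and at most 62.9 per kilobase.

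To compare the regions, the EC mean of each gene was divided by its PVC mean and by 1.86, the median of this ratio over the 15642 genes with a mean of at least 10 in both regions, as the tables had been normalized separately. A scaled ratio of 1 thus marks a gene that differs between the regions as the median gene does. None of the 9 genes had a scaled ratio past 1.5-fold in either direction, and the ratios ran from 0.973 to 1.18 with a median of 1.06. Of all genes compared, 6.78% were at least 1.5-fold higher and 5.38% at least 1.5-fold lower in the EC, so a count of 0 among 9 genes does not set them apart.

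*Oscar* had the highest ratio of the 9 genes at 1.18, followed by *Rdh13* at 1.16 and *Myadm* at 1.099. *Mboat7* was at 1.08, *Prpf31* at 1.06, *Ptprh* at 1.03 and *Cnot3* at 1.01. *Leng8* at 0.988 and *Tmc4* at 0.973 were the 2 genes below 1. The ratio of *Oscar* stood at percentile 80.7 of all genes compared and that of *Tmc4* at percentile 42.3. Between the lowest and the highest of the 9 ratios lay 38.4% of all genes compared. Division by the table sums in place of the median gave *Leng8* a ratio of 1.005, and without any scaling both *Leng8* (1.83) and *Tmc4* (1.81) were above 1.

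**Figure D3:**
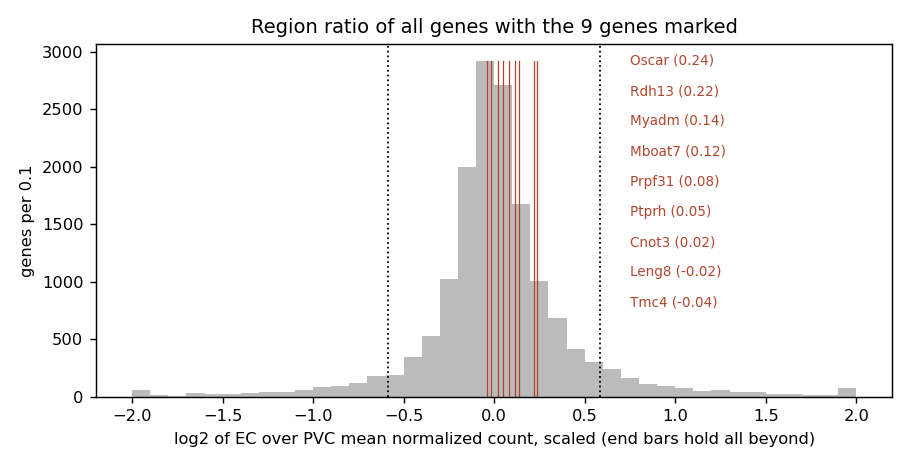
Histogram of the log2 scaled ratio of EC over PVC mean normalized count for the 15642 genes compared (grey bars of width 0.1, the end bars holding all values beyond), with the 9 genes as red lines and 1.5-fold as dotted lines. The 9 genes lie between −0.04 for *Tmc4* and 0.24 for *Oscar*, within the dotted lines.

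The surroundings of the 9 genes were taken by position, from 500 kb before *Myadm* to 500 kb after *Ptprh*. Of the 105 annotated symbols there 89 were listed in the tables, 80 besides the 9 genes. Of these 80, 49 had a mean of at least 10 in both regions, 10 were listed at 0 in both and 21 lay in between. Those at 0 were mostly microRNA genes. The 49 genes had scaled ratios from 0.348 to 2.06 and a median of 1.02, and 6 of the 49 (12.2%) were at least 1.5-fold higher in the EC and 1 (2.04%) at least 1.5-fold lower. Over all genes compared the shares were 6.78% and 5.38%, and the difference from these shares was not tested.

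The genes past 1.5-fold were of several kinds. *Prkcc*, which encodes the gamma form of protein kinase C and follows *Myadm* on the chromosome, had an EC mean of 22305 against 6726 in the PVC, a scaled ratio of 1.79. *Cacng6*, for a calcium channel gamma subunit, had 43.3 and 11.3 and a ratio of 2.06. *Cox6b2*, for a cytochrome c oxidase subunit, had a ratio of 1.60, the zinc finger gene *Zfp580* one of 1.55, the long noncoding gene *Gm15927* one of 1.52 and *Cdc42ep5*, for an effector of CDC42, one of 1.51. *Tnnt1*, which encodes slow skeletal troponin T, was the gene below, with an EC mean of 33.2 against 51.3 in the PVC and a ratio of 0.348. When only genes with means of at least 100 in both regions were counted, 2 of these 7 were left, *Prkcc* and *Zfp580*. The most abundant other genes were *Ttyh1* (25036 in the EC, ratio 0.982), *Prkcc* and *Epn1* (17601 in the EC, ratio 0.986), of which *Ttyh1* ends just before *Leng8*.

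**Figure D4:**
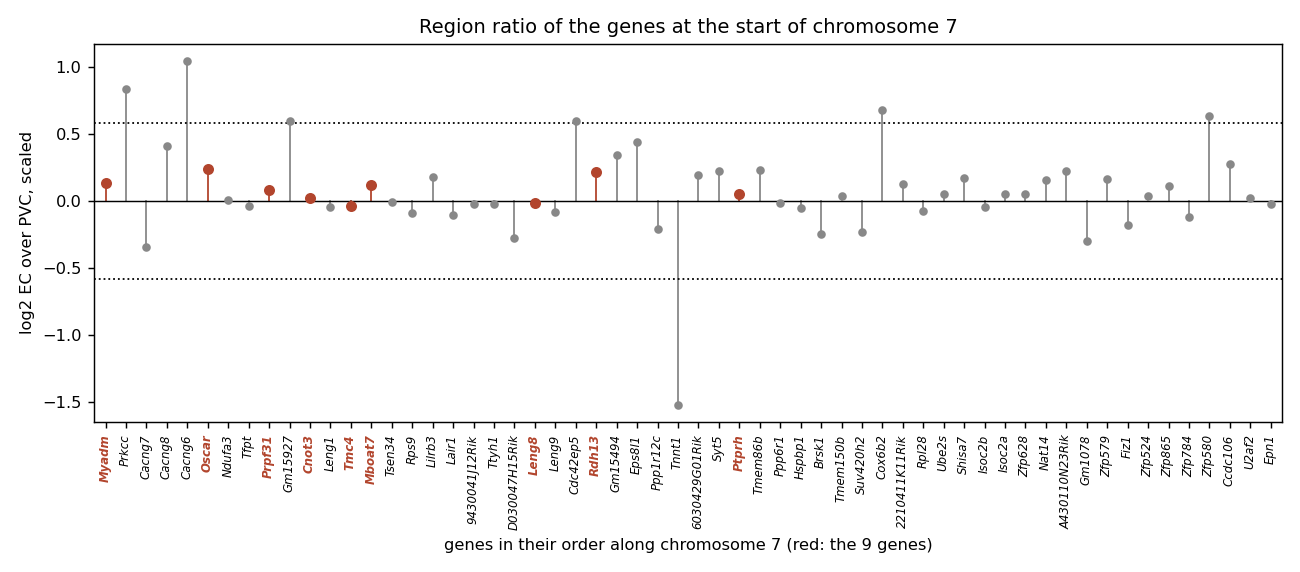
Log2 scaled ratio of EC over PVC for the 58 genes of the window with a mean of at least 10 in both regions, in their order along chromosome 7, the 9 genes in red and 1.5-fold as dotted lines. *Tnnt1* reaches below the lower line and *Prkcc*, *Cacng6*, *Gm15927*, *Cdc42ep5*, *Cox6b2* and *Zfp580* above the upper, while the 9 genes stay close to 0.

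Several of the 9 genes share bases or starts with a neighbour, which bears on their counts because the kit used does not mark the strand. *Cnot3* shares 1011 of its 4340 exon bases (23.3%) with *Leng1* on the opposite strand, whose mean was 181 in the EC against 2515 for *Cnot3*. *Prpf31* shares 803 of 5439 (14.8%) with *Gm15927*, at 57.5 in the EC, and *Tmc4* shares 594 of 3859 (15.4%) with *Gm15929*, at 1.79. How the authors' counting treated reads over such bases is not given in the sources used here, so these means are uncertain to that extent. *Mboat7* and *Tsen34* overlap head to head by 149 exon bases, 1.93% of those of *Mboat7*, and *Rdh13* holds a microRNA gene in 96 of its 6595 bases.

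In pairs that start head to head the ratios of the partners were set side by side. *Prpf31* starts 56 bases from *Tfpt*, and their ratios were 1.06 and 0.974. *Mboat7* and *Tsen34* had 1.08 and 0.994, and *Oscar*, 1216 bases from *Ndufa3*, had 1.18 against 1.01 for that gene of respiratory complex I. *Leng8*, 113 bases from the noncoding *D030047H15Rik*, had 0.988 against 0.827, and *Cnot3*, 403 bases from *Gm15927*, had 1.01 against 1.52. The ratios of these noncoding partners are uncertain, as the kit does not mark the strand. *D030047H15Rik* (760 in the EC) overlaps the span of *Ttyh1* (25036) on the opposite strand. *Gm15927* shares exon bases with *Prpf31*, as given above.

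The families and complexes of the 9 genes were followed in the same way. In the 9 lists 66 genes other than the 9 had a scaled ratio, of which 3 (4.55%) were at least 1.5-fold higher in the EC and 3 (4.55%) at least 1.5-fold lower, near the shares of 6.78% and 5.38% over all genes. The lists of complexes had narrow ranges, while over all genes compared the quartiles of the ratio were 0.907 and 1.12. All 12 genes of the CCR4-NOT list with a value had ratios from 0.868 to 1.035 with *Cnot3* at 1.01, and all 14 of the U4/U6.U5 list from 0.919 to 1.11 with *Prpf31* at 1.06. The 3 *Leng* genes, listed together by their name, ran from 0.944 to 0.988. Per kilobase, *Leng8* was at 3636 in the EC against 177 for *Leng9* and 81.2 for *Leng1*.

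The enzyme families were wider. Among the membrane-bound acyltransferases 9 genes had ratios from 0.470 to 1.44 and *Hhatl*, with 257 (EC) and 294 (PVC), was the gene past 1.5-fold. Per kilobase of merged exons *Mboat7* (1111 in the EC) was below *Porcn* (1230), which encodes the acyltransferase of Wnt proteins, but with the longest transcript it was above it, at 2537 against 1408. Among 10 retinol dehydrogenase genes *Rdh12* was past 1.5-fold at 1.66, and *Rdh13* had the highest mean normalized count of the list. Per kilobase of merged exons *Rdh14* (666 in the EC) and *Rdh11* (444) were above *Rdh13* (397), whereas with the longest transcript *Rdh13* (851) was above *Rdh14* (666) and *Rdh11* (470).

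In the families of the membrane proteins some relatives were past 1.5-fold. *Tmc6* had an EC mean of 761 against 166 in the PVC, a ratio of 2.46, against 0.973 for *Tmc4*. *Ptpro*, a receptor phosphatase of the same class as *Ptprh*, had 3014 and 394, a ratio of 4.12, against 1.03 for *Ptprh*. Of the MARVEL domain genes *Mal* had a ratio of 0.406 and *Pllp* one of 0.632, both encoding myelin proteolipids, against 1.099 for *Myadm*. In the leukocyte receptor list 5 genes had a ratio, from 0.913 for *Trem2* to 1.18 for *Oscar*. The adaptor gene *Fcer1g* had 307 (EC) and 158 (PVC) and a ratio of 1.05, and per kilobase it was at 384 in the EC against 32.5 for *Oscar*.

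**Figure D5:**
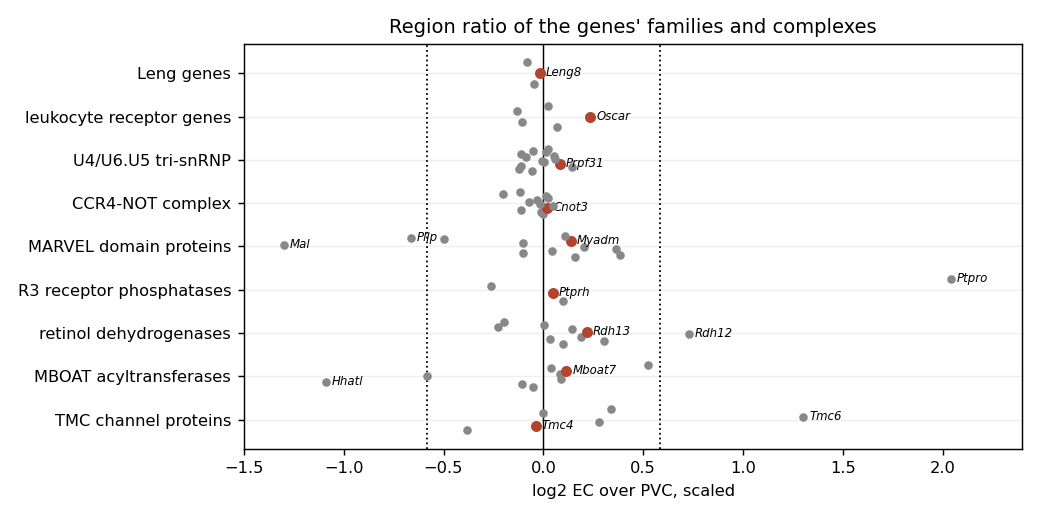
Log2 scaled ratio of EC over PVC for the genes of the 9 lists with a mean of at least 10 in both regions, the 9 genes of chromosome 7 in red, the other listed genes in grey and 1.5-fold as dotted lines. *Ptpro*, *Tmc6* and *Rdh12* lie beyond the right line, *Mal*, *Hhatl* and *Pllp* beyond the left, and the genes of the CCR4-NOT and U4/U6.U5 lists stay near 0.

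Marker genes of cell types were read beside these ratios. Neuronal *Snap25* and *Slc17a7* were abundant in both regions, at 112526 and 77884 in the EC, and the cortical *Tbr1* and *Fezf2* were present in both, with ratios of 0.649 and 0.714, so the markers of neurons and of cortex were found in both regions. The 3 oligodendrocyte markers had ratios from 0.352 to 0.387, the 3 astrocyte markers from 0.999 to 1.53, the 3 microglial from 0.974 to 1.11, the 2 inhibitory neuron markers from 0.800 to 0.961 and the 2 endothelial from 0.990 to 1.03. The dentate gyrus gene *C1ql2* had a ratio of 3.46 with *Prox1* at 0.841, and the choroid plexus gene *Ttr* one of 0.221 with *Kl* at 1.01. Of the osteoclast markers *Calcr* was at 1.92 in the EC and *Acp5* at 6.20, while *Ctsk* was at 131. Of the epithelial markers *Krt8* was at 2.31 and *Epcam* at 19.5 in the EC, while *Cdh1* was at 377 with a ratio of 2.29. The T cell markers summed to 4.15 and the B cell markers to 26.2 in the EC. In bulk tissue, fewer cells of a type and less RNA per cell cannot be told apart, and the part of cell type shares in the ratios of the 9 genes was not tested.

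*Apoe* itself was listed with a mean normalized count of 636 (EC) and 344 (PVC), in mice whose *APOE* transcript is human. The reads were aligned to the mouse genome, so these means are not a measure of the level of human *APOE*.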

How the data were processed

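Poly(A)+ RNA of the EC and PVC of *APOE* targeted replacement mice was sequenced as single-end reads. Per the submitters' processing notes and the methods, the authors aligned the reads with TopHat2 (2.0.6) and Bowtie2 (2.0.2.0) to mm9, counted them with HTSeq and used DESeq2 (1.10.1) to normalize the counts and to compare the genotypes. The methods restrict the annotation to protein-coding genes, yet 4686 listed symbols are annotated as not protein coding, 873 of them with means of at least 10 in both regions.

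The deposited tables give 1 signal value per gene and region, the mean normalized count of the authors over all libraries of the region. The other columns hold the authors' own genotype comparison (log2 fold change, its standard error, statistic, *p* and adjusted *p*) and were not used. Depth per library was therefore not analysed here, and no count model or test could be run. Columns of single samples were absent from the tables used.

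Means were compared with Python 3.11.15 and drawn with matplotlib 3.10.9. EC over PVC ratios were divided by their median over genes with means of at least 10 in both regions, and a fold of 1.5 was counted. The code was checked on simulated data, which says nothing of the error of the means. Exon lengths, merged over transcripts, and coordinates came from GENCODE M1 on NCBIM37, in which 80.6% of the listed symbols and 95.6% of the compared ones had 1 place. Promoters came from the RefSeq table (GRCm38.p6) and were located on NCBIM37 by exact match.

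The 9 genes, the families (TMC, MBOAT, retinol dehydrogenase, R3 phosphatase, MARVEL, CCR4-NOT, U4/U6.U5, leukocyte receptor and *Leng* lists), the markers and the position rule were chosen with earlier results of these data known. Named in the text are the 9 genes, window and family genes past 1.5-fold and the 3 most abundant window genes, while relatives, overlapping genes and pair partners given for comparison were added after their values were seen. Alternatives changed the scaling, the minimum, the fold, the window, the reference for percentiles, the pseudocount and the gene length. A further marker gene is not reported here.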

Additional observations from a re-analysis of the deposited data

How the results depend on the processing

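No paired analysis was possible because the tables hold 1 pooled mean per region, so neither the animal numbers shared by the regions nor the leaving out of single libraries could be used. Without scaling the median EC over PVC ratio of the 9 genes was 1.965 and all 9 were past 1.5-fold, as were 88.3% of all genes compared in that direction, since the tables differ in scale. Under the sum of means, a minimum above 0 or of 100, or a fold of 2, the count of the 9 genes past the fold was 0. The other window genes past the fold fell from 7 to 2 with means of at least 100 and to 2 at a fold of 2. The median percentile of the 9 levels, 82.0 in the EC and 79.9 in the PVC, was 72.3 and 67.5 among genes with a mean of at least 10 and 75.7 and 73.2 among protein-coding genes. With the longest transcript as length, the median level per kilobase went from 397 to 849 in the EC and from 184 to 394 in the PVC, and 5 of 9 genes held their place in the EC order. Whether any ratio near 1 differs from 1 cannot be said, because the means carry no error. Of 137 values under an alternative, 72 stayed within 1.1-fold, 5 percentile points or 1.5 times a count and 65 moved further. Those of the relatives per kilobase of the longest transcript were chosen after seeing the data. Among the moves, *Leng8* and *Tmc4* came to lie above 1 without scaling, and *Leng8* also with the table sums.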

Other observations

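Some relatives of the 9 genes had a mean under 10 in 1 or both regions and so entered no ratio. *Lilrb4*, an inhibitory receptor of myeloid cells, was at 24.7 in the EC and 5.69 in the PVC, and *Tmc1*, a channel protein of hair cells, at 2.35 and 12.2. The leukocyte receptor genes *Ncr1* and *Gp6*, which lie between *Leng8* and *Rdh13*, were at 0.485 and 0.273 in the EC. These were chosen after their values were seen and carry no error.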
